A study of Mus musculus with 8 samples.

Results

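The 10 genes described here carry the class I antigen presentation pathway in mouse liver: the heavy chains H2-K1 and H2-D1, the light chain B2m, the peptide transporter subunits Tap1 and Tap2, the loading factor Tapbp, the immunoproteasome subunits Psmb8, Psmb9 and Psmb10, and the transactivator Nlrc5. They were taken by name as every non-control array probe whose gene name was one of these, which gave 17 probes among 36666 gene names on the array. All 10 genes were measurable, with a probe above background on each of the 8 arrays, and 15 of the 17 probes were tested. Livers of male mice collected 8 h after acetaminophen, a drug whose overdose injures hepatocytes, were compared between an age of 8 weeks (young, n = 4 arrays) and 80 weeks (old, n = 4 arrays). Every sample in both groups had received the drug, and untreated livers were not analysed here. Neither strain nor dose is given in the sources used here, nor is it said that the arrays came from separate animals, so the p-values cover the spread among these samples alone, part of which may be technical. Young samples occupied row 1 and old samples row 2 of 1 slide, and the effect of row therefore cannot be told apart from that of age.

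Class I molecules display peptides from inside the cell to CD8+ T cells, and nearly every nucleated cell carries them, hepatocytes at a lower density than immune cells. Proteins are cut by the proteasome, and interferon-gamma exchanges its constitutive catalytic subunits for Psmb8, Psmb9 and Psmb10. The resulting peptides are pumped into the endoplasmic reticulum by the Tap1-Tap2 transporter and loaded onto heavy chain and light chain with the help of Tapbp, while Nlrc5 drives transcription of many of these genes.

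Tap1 and Psmb9 stand head to head on chromosome 17, and the stretch between their start sites is shown because it belongs to both genes. Both had age differences among the larger of the genes described here, and neither passed adjustment. The upstream sequences of H2-K1 and H2-D1, whose age differences were smaller, are shown beside it. The sequences were thus chosen by the values of their genes, and no link between sequence and age difference was tested. All 3 are RefSeq sequence on build GRCm38.p6, and the last base before the start site ends each H2 line. Capitals mark matches, on either strand, to AANNGAAA (the core of an interferon regulatory factor element). They also mark TGACG (found in the X2 box of class I promoters) and CCAAT (found in the Y box), likewise on either strand. The letters alone do not make a match a Y box, and the H2-D1 line held 2 CCAAT matches. Whether any match belongs to such a box was not tested.
Tap1-Psmb9 stretch, chr17:34187331-34187555, Tap1 strand: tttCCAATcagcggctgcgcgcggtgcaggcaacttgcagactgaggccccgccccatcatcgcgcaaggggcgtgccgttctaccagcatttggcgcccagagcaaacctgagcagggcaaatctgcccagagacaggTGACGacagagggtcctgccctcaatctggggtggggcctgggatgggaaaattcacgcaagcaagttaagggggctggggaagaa
H2-K1 upstream, chr17:34000348-34000547, minus strand: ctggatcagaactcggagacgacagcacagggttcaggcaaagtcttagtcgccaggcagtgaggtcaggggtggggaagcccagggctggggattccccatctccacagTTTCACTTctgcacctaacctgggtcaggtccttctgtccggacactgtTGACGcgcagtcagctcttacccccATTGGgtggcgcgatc
H2-D1 upstream, chr17:35262894-35263093, plus strand: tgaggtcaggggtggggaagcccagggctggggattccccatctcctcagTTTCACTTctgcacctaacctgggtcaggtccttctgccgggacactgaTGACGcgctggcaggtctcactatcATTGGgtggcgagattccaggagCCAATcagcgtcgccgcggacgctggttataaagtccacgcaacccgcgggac
The start sites of Tap1 and Psmb9 lie 226 bases apart, and the 225 bases between them held 1 TGACG and 1 CCAAT match, with 0 matches to AANNGAAA. The H2-K1 and H2-D1 lines each held 1 AANNGAAA and 1 TGACG match, and their aligned part of 140 positions had 127 identical ones (90.7%). No capitals of different motifs overlapped in these lines.

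A promoter window of 300 bases was matched for 8 of the 10 genes, with Tap2 and Nlrc5 unmatched. AANNGAAA was found in 3 of the 8 windows (H2-K1, H2-D1 and B2m), against 23.9% of 32851 windows of the same length. TGACG was found in 5, against 20.8%, and CCAAT in 6, against 37.4%; the Tap1 and Psmb9 windows overlap and count the same matches. Such a match is a description of the letters and not evidence of binding.

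A pair of the 60-base probes behind the values is also shown, one for the gene with the largest age difference and one for a neighbour read by a pair of probes.
Psmb9 probe, mm9 chr17:34319174-34319233, minus strand: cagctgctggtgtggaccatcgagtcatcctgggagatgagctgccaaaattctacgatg
Tap1 second probe, mm9 chr17:34330854-34330913, plus strand: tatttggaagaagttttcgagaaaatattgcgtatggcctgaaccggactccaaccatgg

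All 10 genes had a higher mean in the old livers, with log2 differences from 0.13 for Nlrc5 to 1.34 for Psmb9 and a median of 0.29, against a median of 0.018 over 17565 genes tested and a share of 52% positive among them. None passed the test: the adjusted p (limma, Benjamini-Hochberg over 17565 genes, threshold 0.05) ran from 0.19 to 0.771. Across all genes, 63 passed, which is 0.359%. At an unadjusted p under 0.05, 4 of the 10 were higher in old livers (Psmb9, Psmb8, Tap2 and Tap1), against 7.91% of all genes. In 2 of the 10, Psmb9 and Tap2, every old array lay above every young one, against 4.62% of all genes. The count over all genes was 27 without young replicate 1, 38 without old replicate 3 and 39 without old replicate 4, and 0 of the 10 genes passed in any of these. The 4 genes at an unadjusted p under 0.05 became 1 when arrays were scaled by their median, without young replicate 1 and without old replicate 4, and 2 without young replicate 2, old replicate 1 or old replicate 3. All 10 differences stayed positive under median scaling, and 8 did without young replicate 2. Because these are whole livers, more cells of a type and more RNA per cell cannot be told apart.

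**Figure D1:**
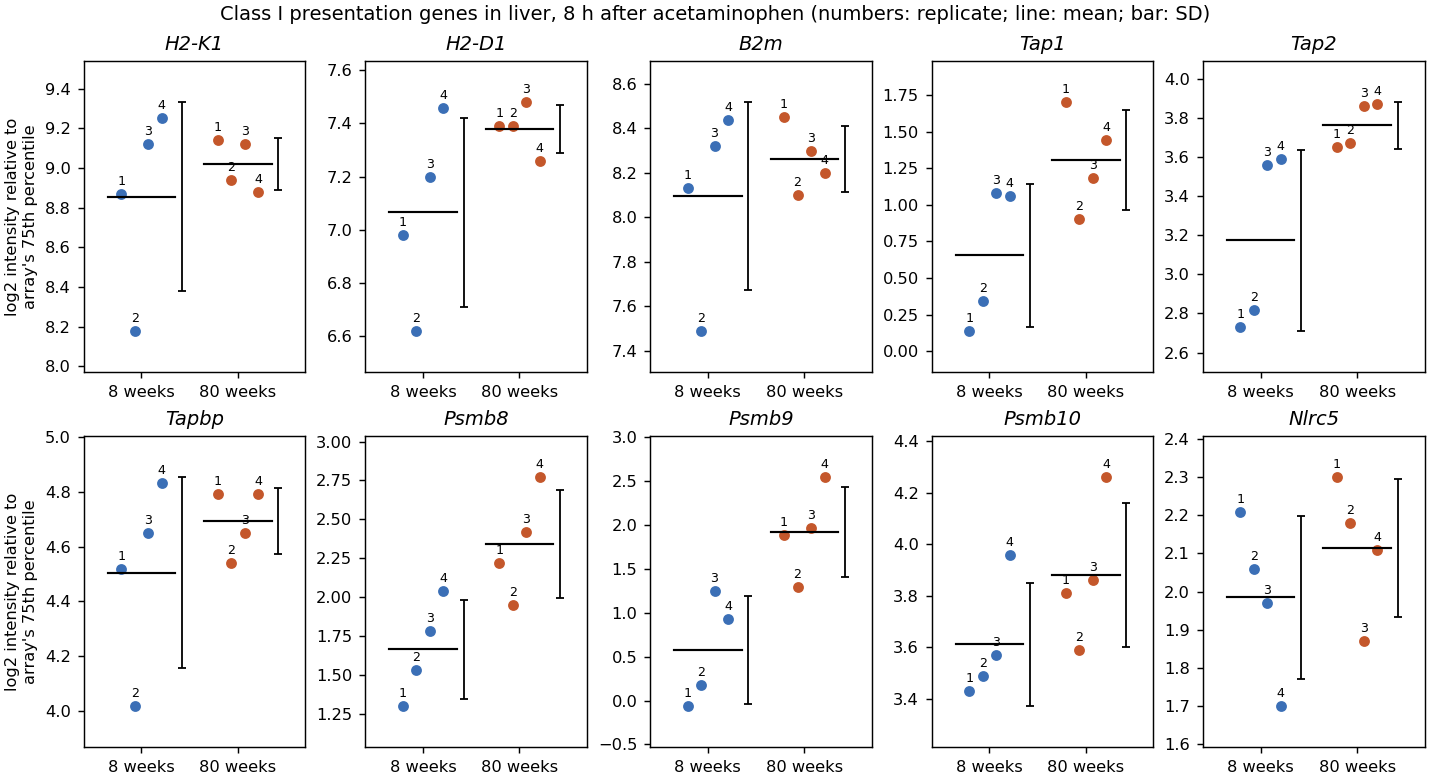
Each panel plots the log2 intensity of 1 gene on each array, relative to that array's 75th percentile, with the replicate number at each point, the group mean as a line and the SD as a bar (n = 4 per age). Old points lie wholly above young points for Psmb9 and Tap2, and young replicate 2 is the lowest point for H2-K1, H2-D1, B2m and Tapbp.

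The immunoproteasome subunits showed the largest age difference and also a small one. Psmb9, the beta1i subunit, read -0.06, 0.18, 1.25 and 0.93 in young replicates 1 to 4 and 1.88, 1.29, 1.96 and 2.54 in old replicates 1 to 4, on the log2 scale relative to the 75th percentile. The groups did not overlap, with young replicate 3 just below old replicate 2. The mean was 1.34 higher in old livers (SE 0.35, a ratio of 2.53, n = 4 per age, limma adjusted p = 0.19), which was rank 363 of all genes by p. A second Psmb9 probe was above background on 0 of 8 arrays and was not tested.

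Psmb8, the beta5i subunit, read 1.30, 1.53, 1.78 and 2.04 in young and 2.22, 1.95, 2.42 and 2.77 in old livers. Old replicate 2 fell below young replicate 4, and the other old arrays lay above all young ones. Its log2 difference was 0.68 (SE 0.24, a ratio of 1.60, limma adjusted p = 0.30). Psmb10, the beta2i subunit, read 3.43, 3.49, 3.57 and 3.96 in young and 3.81, 3.59, 3.86 and 4.26 in old livers. Its groups overlapped, and the difference was 0.27 (SE 0.21, limma adjusted p = 0.561).

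Each inducible subunit replaces a constitutive one in the same position of the proteasome ring: Psmb8 replaces Psmb5, Psmb9 replaces Psmb6 and Psmb10 replaces Psmb7. Within each array the log2 intensity of the constitutive partner was subtracted from that of the inducible subunit, so that the scaling of the array cancels. Since 2 probes differ in brightness per transcript, these values show changes between ages and not how much of each subunit was present. Psmb8 minus Psmb5 was -3.54, -3.18, -3.34 and -3.02 in young and -2.14, -2.76, -2.61 and -2.02 in old livers. All old values exceeded all young ones, and the difference of 0.89 (a ratio of 1.85) had a 2-sided exact permutation p of 0.0286, the smallest that 4 against 4 arrays allow, and 0.0429 after adjustment over the 3 pairs. Psmb9 minus Psmb6 was -6.92, -6.34, -5.88 and -6.31 in young and -5.06, -5.68, -5.17 and -4.41 in old livers. These groups did not overlap either, and the difference of 1.28 (a ratio of 2.43) had the same exact permutation p of 0.0286, adjusted 0.0429.

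Psmb10 minus Psmb7 was -0.70, -0.61, -1.05 and -0.78 in young and -0.38, -0.80, -0.68 and -0.19 in old livers. These values overlapped, and the difference of 0.27 had an exact permutation p of 0.229, adjusted 0.229. The partners themselves differed little between ages, by -0.21 for Psmb5 (SE 0.20), 0.06 for Psmb6 (SE 0.20) and 0.00032 for Psmb7 (SE 0.21), so the numerator carried most of each pair difference. By this test Psmb8 and Psmb9 were higher relative to their partners in old livers. The pairs were chosen with earlier results of these data known, so these p-values are a description and no independent test. Neither Psmb8 nor Psmb9 passed alone over all genes (limma adjusted p = 0.30 and 0.19). The same-numbered arrays of both ages shared a column of the slide; within columns 1 to 4 the difference was 1.40, 0.42, 0.73 and 1.00 for the Psmb8 pair and 1.85, 0.66, 0.70 and 1.90 for the Psmb9 pair. With the column, or replicate number, as a block the adjusted exact sign-flip p of both was 0.188, where 4 columns allow no unadjusted p below 0.125. Whether the Psmb10 pair differed from the others was not tested. With any 1 young array or old replicate 4 left out, the differences ranged from 0.77 to 0.97 for the Psmb8 pair and from 1.06 to 1.44 for the Psmb9 pair, and the adjusted exact permutation p of both was 0.0857.

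**Figure D2:**
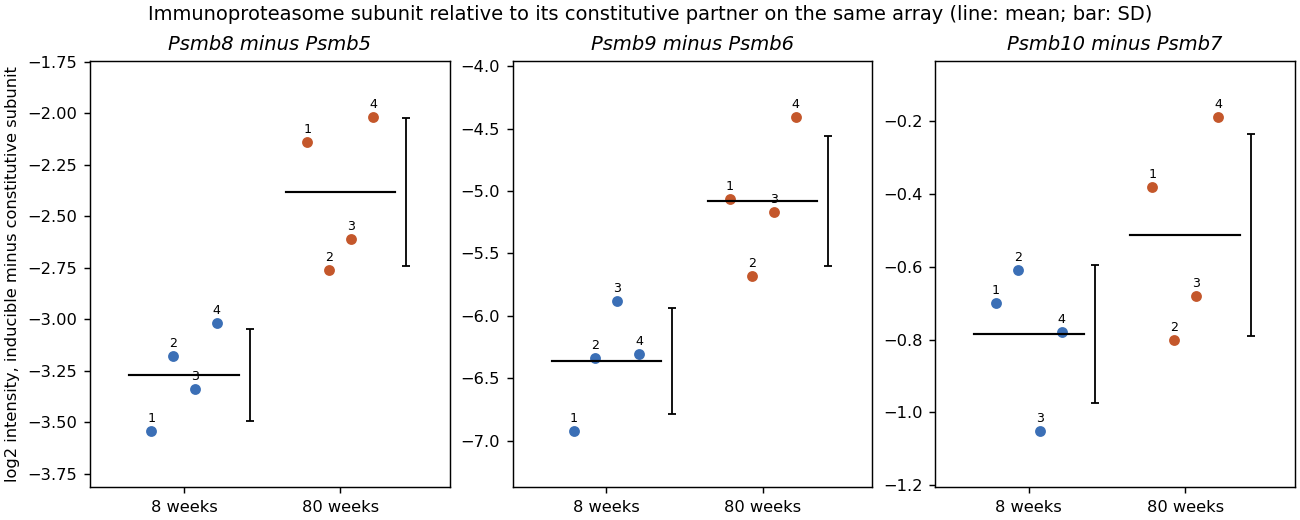
Each panel plots, per array, the log2 intensity of an inducible proteasome subunit minus that of its constitutive partner, with the replicate number at each point, the mean as a line and the SD as a bar (n = 4 per age). The ages separate for Psmb8 minus Psmb5 and for Psmb9 minus Psmb6, and overlap for Psmb10 minus Psmb7.

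Both subunits of the peptide transporter were brighter in old livers at an unadjusted p under 0.05, and neither passed after adjustment. Tap2 read 2.73, 2.82, 3.56 and 3.59 in young and 3.65, 3.67, 3.86 and 3.87 in old livers. The groups did not overlap, but young replicate 4 lay only just below old replicate 1. The log2 difference was 0.59 (SE 0.24, a ratio of 1.5, limma adjusted p = 0.339). The other Tap2 probe was above background on 0 of 8 arrays and was not tested.

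Tap1 read 0.14, 0.34, 1.08 and 1.06 in young and 1.7, 0.90, 1.18 and 1.44 in old livers. Old replicate 2 lay below young replicates 3 and 4, and the difference was 0.65 (SE 0.28, a ratio of 1.57, limma adjusted p = 0.35). The second Tap1 probe, printed above, read -2.34, -1.39, -0.85 and -1.08 in young and -0.34, -0.70, -0.80 and -0.74 in old livers. Here the groups did not overlap, but young replicate 3 lay only just below old replicate 3. The difference was 0.77 (SE 0.31, limma adjusted p = 0.331 over 25735 probes). Both probes placed young replicate 1 lowest.

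Tapbp, the bridge between the transporter and the empty class I molecule, read 4.52, 4.02, 4.65 and 4.83 in young and 4.79, 4.54, 4.65 and 4.79 in old livers. Young replicate 2 stood lowest and young replicate 4 highest. The difference was 0.19 (SE 0.21, limma adjusted p = 0.693), and a dimmer second Tapbp probe gave -0.09 (SE 0.22), so its direction depended on the probe.

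The heavy chains and the light chain showed small differences next to the spread among young arrays. H2-K1 read 8.87, 8.18, 9.12 and 9.25 in young and 9.14, 8.94, 9.12 and 8.88 in old livers. All old arrays fell between young replicates 1 and 4, and young replicate 2 stood apart below. The difference was 0.16 (SE 0.25, limma adjusted p = 0.771), and 0.23 (SE 0.22) by its second probe.

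H2-D1 read 6.98, 6.62, 7.20 and 7.46 in young and 7.39, 7.39, 7.48 and 7.26 in old livers. Its old arrays lay close together, with an SD of 0.09 against 0.35 in young livers, and the difference was 0.32 (SE 0.21, limma adjusted p = 0.491). B2m, the invariant light chain, read 8.13, 7.49, 8.32 and 8.44 in young and 8.45, 8.10, 8.30 and 8.20 in old livers. Its groups overlapped, with a difference of 0.17 (SE 0.23, limma adjusted p = 0.75). A dimmer second B2m probe gave 0.18 (SE 0.36). Class I heavy chains are a family of near-identical sequences, so 1 probe may bind several of them, which was not tested.

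Nlrc5, the class I transactivator, differed by 0.13 (SE 0.19, limma adjusted p = 0.762). It read 2.21, 2.06, 1.97 and 1.7 in young and 2.30, 2.18, 1.87 and 2.11 in old livers. Its order over the young arrays was unlike that of the other genes: young replicate 4 was lowest and replicate 1 highest. A second Nlrc5 probe, above background on 6 of 8 arrays, gave -0.17 (SE 0.36), so the direction for Nlrc5 depended on the probe.

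The young arrays differed widely among themselves. Centred on each gene's mean over 8 arrays, the mean log2 level of the 10 genes was -0.42, -0.57, 0.01 and 0.08 in young and 0.29, 0.01, 0.23 and 0.37 in old livers. Old replicate 2 thus matched young replicate 3. Young replicate 1 held the lowest value for 5 genes (Tap1, Tap2, Psmb8, Psmb9 and Psmb10), and young replicate 2 for 4 (H2-K1, H2-D1, B2m and Tapbp). Young replicate 2 was also lowest for 7 of 8 hepatocyte markers, for 72.5% of the 1000 brightest genes and for 35.1% of all genes. Its 75th percentile, which was subtracted from its values, was the highest, at 352.8 intensity units against 154.7 to 264.8 on the other arrays. The part of that array's shift in the class I values was not tested.

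Without young replicates 1 and 2, the log2 difference was 0.82 for Psmb9 (limma adjusted p = 0.545), 0.43 for Psmb8, 0.24 for Tap1 and 0.19 for Tap2. It was 0.05 for H2-D1 and 0.12 for Psmb10, and it turned negative for H2-K1 (-0.17), B2m (-0.12) and Tapbp (-0.05). Nlrc5 was the exception, with 0.28. The median of the 10 was then 0.15, against -0.057 for all genes. Over the same arrays, the pair differences were 0.80 for Psmb8 minus Psmb5, 1.01 for Psmb9 minus Psmb6 and 0.40 for Psmb10 minus Psmb7, with an exact permutation p of at least 0.133 where the smallest that 2 against 4 arrays allow is 0.0667.

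**Figure D3:**
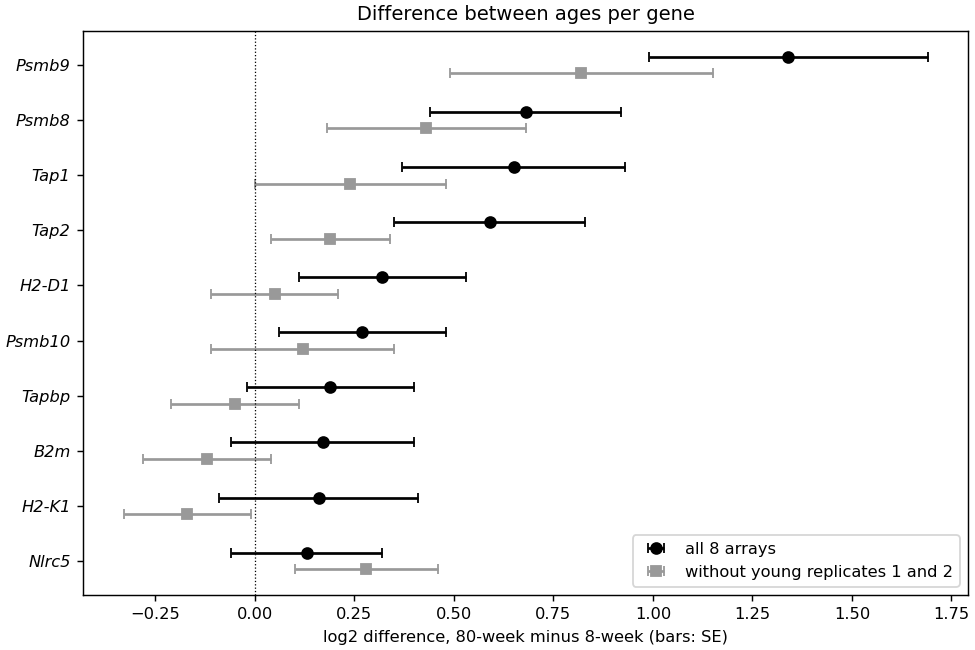
Points give each gene's log2 difference, 80-week minus 8-week, with SE bars, over all 8 arrays (black circles) and without young replicates 1 and 2 (grey squares). Psmb9 goes from 1.34 to 0.82, and H2-K1, B2m and Tapbp go from above 0 to below 0.

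The 4 genes with the largest differences, Psmb9, Tap1, Psmb8 and Tap2, are direct neighbours on chromosome 17 in the RefSeq gene order of GRCm38.p6, an observation made after their values were seen. On each side stand MHC class II presentation genes, which present extracellular peptides to CD4+ T cells. From H2-DMa to H2-Eb1, 9 of 11 protein-coding genes were tested, and all 9 were higher in old livers at an unadjusted p under 0.05, with log2 differences from 0.59 to 1.40 and 0 past adjustment. Without young replicates 1 and 2 all 9 were still higher and 5 reached that p, and the number was 6 without young replicate 1, without old replicate 4 or with median scaling. From Tapbp to Brd2, the 15 genes before this stretch, 12 were tested, 7 were higher, none reached that p, and the median was 0.06. H2-K1 and Tapbp belong to that latter run. The ends of both runs were likewise set after the values were seen, so these counts are a description. The centred mean log2 level of the 4 neighbours was -0.90, -0.71, -0.01 and -0.02 in young and 0.44, 0.03, 0.43 and 0.73 in old livers. Old replicate 2 lay just above young replicate 3, and the other old arrays lay well above all young ones. For the other 6 genes it was -0.10, -0.48, 0.01 and 0.15 in young and 0.19, 0.00, 0.09 and 0.13 in old livers, with the groups overlapping. The 4 are those with the largest differences, so their wider gap between ages follows from the choice and is no separate result.

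**Figure D4:**
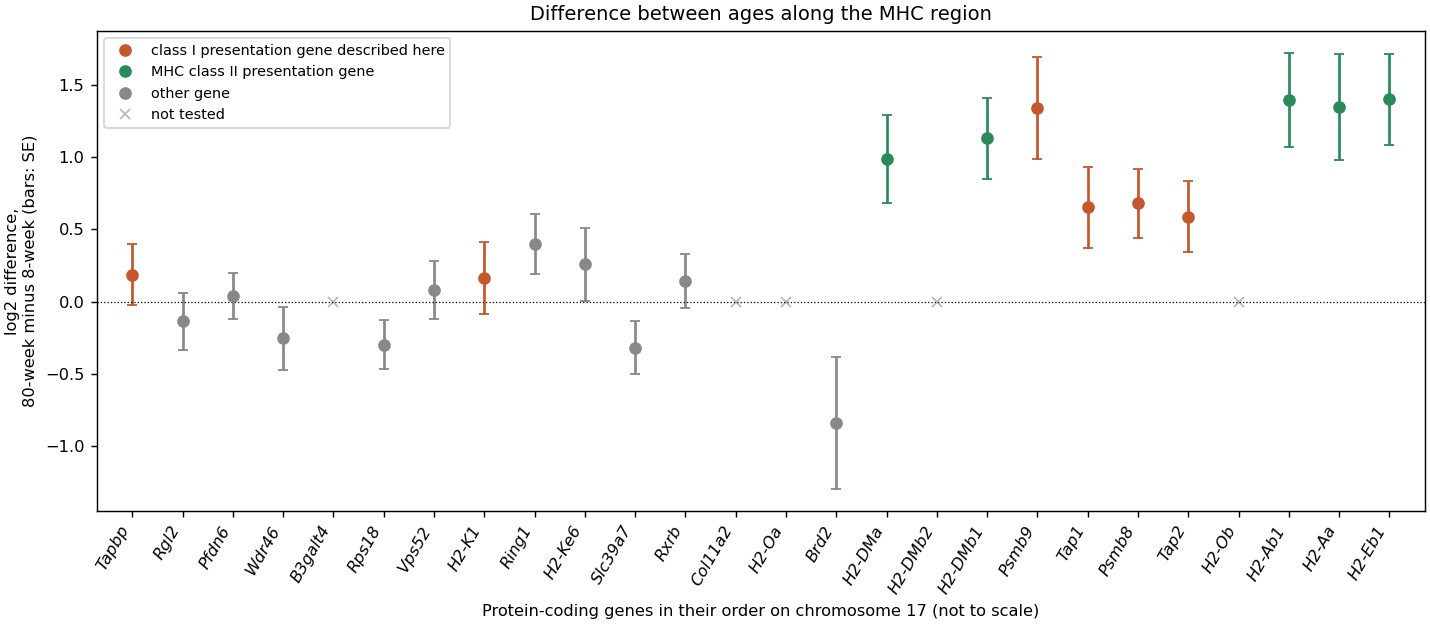
Protein-coding genes are placed in their order on chromosome 17, not to scale, with the log2 difference, 80-week minus 8-week, and its SE (crosses at 0 were not tested). The 9 tested genes from H2-DMa to H2-Eb1 lie between 0.59 and 1.40, and those before them lie between -0.84 and 0.40.

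Among the class II genes, H2-Eb1 read 2.81, 3.04, 3.04 and 4 in young and 5.14, 4.08, 4.52 and 4.75 in old livers, a difference of 1.40 (limma adjusted p = 0.135). H2-Ab1 differed by 1.40 (adjusted p = 0.141) and H2-DMb1, which helps load peptide onto class II molecules, by 1.13 (adjusted p = 0.166). Of 7 class II presentation genes tested, 6 were higher at an unadjusted p under 0.05, the median was 1.13, and 0 passed adjustment with all arrays. The number at an unadjusted p under 0.05 was 4 without young replicates 1 and 2, and 0 passed adjustment there too. Without young replicate 4, H2-Eb1 (1.66, adjusted p = 0.0488) and H2-Ab1 (1.7, adjusted p = 0.0348) passed.

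Other class I and class I-like heavy chains had small differences of 1 sign. All 21 tested had a positive difference (19 when arrays were scaled by their median), against 52% of all genes. Their median was 0.31 with a range from 0.06 to 0.80, and 0 passed adjustment. A probe may bind several class I heavy chains, so the 21 signs may not be separate readings, which was not tested. Without young replicate 2, 17 of the 21 were positive with a median of 0.11, and without young replicates 1 and 2, 12 were, with a median of 0.019. H2-Q6, a Qa-2 family heavy chain, differed by 0.60 (limma adjusted p = 0.306) and was the only one with an unadjusted p under 0.05. H2-Q1 differed by 0.80 and Fcgrt, the neonatal Fc receptor heavy chain that pairs with B2m, by 0.56. H2-Q1 differed by 0.46 without old replicate 3, Fcgrt by 0.21 without young replicate 2, and H2-Q6 by 0.33 without young replicates 1 and 2. Young replicate 2 stood lowest for Fcgrt at 2.98.

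Genes that serve peptide trimming and loading in the endoplasmic reticulum or cytosol had mostly negative differences. Of 12 tested, 10 were lower in old livers, with a median of -0.21, and 0 passed adjustment or reached an unadjusted p under 0.05. Tpp2, a cytosolic peptidase, differed by -0.50, the chaperone Hspa5 by -0.45 and the translocon subunit Sec61a1 by -0.31, the last with every old array below every young one. The value for Tpp2 was -0.33 without young replicate 1. Of 9 tested constitutive catalytic, activator and assembly genes of the proteasome, 7 were higher, with a median of 0.06 and 0 past adjustment; scaling by the array median left 3 higher and a median of -0.041, and leaving out young replicate 2 left 4 and -0.056. Psme1, a subunit of the interferon-inducible PA28 activator, differed by 0.32 (limma adjusted p = 0.482) and Psme3, the nuclear activator, by 0.43 (adjusted p = 0.646). The sign for Psme3 turned to -0.012 with the mean of its probes and to -0.20 with array weights, and without young replicate 2 the values were 0.019 for Psme3 and 0.19 for Psme1.

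Interferon-gamma is the textbook inducer of the immunoproteasome, and its own probe was not above background on enough arrays to be tested. Of 22 tested genes of interferon-gamma signalling and class I promoter factors, 10 were higher and 12 lower in old livers, with a median of -0.17 and 0 past adjustment. Without young replicates 1 and 2, 10 of the 22 were higher and the median was -0.043. Nfkb1, an NF-kappaB subunit, differed by -0.79 (limma adjusted p = 0.33). Ifngr2, the accessory chain of the receptor, differed by 0.42 with the ages not overlapping (adjusted p = 0.347), and Ciita, the class II transactivator, by 0.92 (adjusted p = 0.356). Ciita was above background on 2 of 4 young arrays, and its difference was 0.38 after normexp background correction. That of Nfkb1 was -0.23 without young replicates 1 and 2. Among 20 interferon-induced genes with other roles, 7 were higher and 13 lower, the median was -0.14, and 0 passed adjustment. Leaving out young replicates 1 and 2, 1 of the 20 was higher and the median was -0.50. Oasl2, of the oligoadenylate synthetase family, differed by -1.22 (limma adjusted p = 0.30), the GTPase Iigp1 by -0.61 (adjusted p = 0.329) and Rsad2 (viperin) by -0.44. The value for Iigp1 was -0.13 with the mean of its probes, that for Oasl2 was -0.77 after normexp, and that for Rsad2 was -0.20 without old replicate 2. The difference between these lists and the 10 class I genes was not tested.

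Immune cells carry more class I and immunoproteasome RNA than hepatocytes, so markers of other cells were read on the same arrays, each list as a mean of centred log2 levels. General leukocyte markers ran from -0.40 to 0.59 in young and from -0.26 to 0.35 in old livers, with 2 of 5 higher in old livers. T and NK cell markers ran from -0.61 to 0.17 in young and from -0.10 to 0.51 in old livers, with 8 of 9 tested higher (6 with median scaling). Cd2, a T and NK cell adhesion receptor, differed by 1.22 (limma adjusted p = 0.226) and Prf1, perforin, by 0.63 (adjusted p = 0.269), whereas Gzma, granzyme A, differed by -0.50. After normexp these differences were 0.71, 0.21 and -0.22, and that of Gzma was -0.21 without old replicate 2. Cd3g, Cd8a, Nkg7, Gzmb, Klrb1c and Ncr1 were not above background on enough arrays to be tested.

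B and plasma cell markers ran from -1.73 to -0.38 in young and from 0.19 to 1.2 in old livers, with 3 of 4 tested higher, or all 4 after normexp. Their differences ran from -0.021 to 5.41, with a median of 0.56. The largest, that of Jchain, weighs heavily in a mean of 4 genes. The median was 0.30 or 0.23 after normexp with either scaling, and 0.096 without young replicates 1 and 2. Jchain, the joining chain of secreted IgM and IgA, was above background on 1 of 4 young arrays and all 4 old ones. It passed the test (limma adjusted p = 0.0127; 0.112 without young replicates 1 and 2), and the size of its rise was not fixed by these arrays: the log2 difference was 5.41 with the processed signal, and 2.75 or 2.70 after normexp with either scaling. Cd79a, Ms4a1 and Mzb1 were not tested for low signal. Kupffer cell markers ran from -0.53 to 0.16 in young and from -0.32 to 1.00 in old livers, with 8 of 9 higher. Dendritic cell markers ran from -0.30 to 0.35 and from -0.36 to 0.57, with 2 of 5 tested higher, or 3 after normexp background correction. Stellate cell markers ran from -0.84 to 0.11 and from 0.10 to 0.57, with 4 of 5 higher, 3 of them at an unadjusted p under 0.05, and a median of 1.05. Hepatocyte markers ran from -0.67 to 0.34 and from -0.21 to 0.40, with 6 of 8 higher (4 with median scaling), and all 8 were above background on every array. Markers of monocytes and neutrophils ran from 0.07 to 0.79 in young and from -1.13 to 0.52 in old livers, with 1 of 6 tested higher and a median of -0.51. Sinusoidal endothelial markers ran from -0.14 to 0.33 and from -0.47 to 0.45, with 2 of 9 higher (3 after normexp), 2 lower at an unadjusted p under 0.05 and a median of -0.19. Of 2 cholangiocyte markers tested, 1 was higher, and the median was -0.43. With young replicates 1 and 2 left out, the number higher in old livers was 4 of 5 for leukocyte, 4 of 9 for T and NK cell, 2 of 4 for B and plasma cell, 9 of 9 for Kupffer cell, 3 of 5 for dendritic cell, 3 of 5 for stellate cell, 1 of 6 for monocyte and neutrophil, 2 of 9 for endothelial and 1 of 8 for hepatocyte markers. The stellate median was then 0.39. The part of any of these cells in the class I differences was not tested.

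Over the 8 arrays, the 6 named genes outside the list whose centred profile lay nearest to the mean profile of the 10, among 12832 compared, were Rtn3, Sec63, Hipk3, Egln2, Syngr2 and Sec62. Their root mean square distance was 0.07 to 0.08 log2 units, and their age differences ran from 0.32 to 0.44. The profile includes the gap between ages, so differences like those of the 10 follow from the choice and are no separate result. Among them, Syngr2 had the lowest limma adjusted p, 0.345.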

How the data were processed

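Total RNA was labelled with Cy3 and hybridised to 8 single-colour Agilent arrays of 62976 spots. The authors deposited scanner files of spot intensity, already background-corrected by Feature Extraction 10.7.3.1 per the file headers; the submitters' processing notes name version 9.1. The authors' deposited table of intensity matched this signal within 1% and was used as an alternative.

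Values were taken as log2, outlier spots (59 to 97 per array) were left out, repeat spots were averaged per probe, and the array's 75th percentile (154.7 to 352.8 intensity units) was then subtracted. A gene was represented by its brightest probe above background on at least 4 arrays, which left 17565 genes. No spot was saturated. The ages were tested in R 4.3.3 using limma 3.58.1 (lmFit, eBayes, Benjamini-Hochberg), and subunit pairs with a 2-sided exact permutation test. The limma code was run on simulated data with independent noise per gene, to see that it recovers large differences. That simulation held no shift shared by a whole array, so it does not cover the spread among the young arrays here. The number of arrays limits the precision.

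The members, lists, pairs and rules were chosen with earlier results of these data known. Every member is named with its probes; of other lists, the genes past the threshold, or else the 3 of smallest p. Marker lists other than T and NK and B and plasma cells are given as counts, and genes outside this rule are named for their position on chromosome 17, as untested markers or as proteasome partners. Probe positions come from the array files (mm9); promoter windows and gene order are RefSeq's on GRCm38.p6. Exon and UTR annotation on mm9 was not used here. Other background correction, scaling, filters, probe rules, variance models and left-out arrays were tried as alternatives.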

Additional observations from a re-analysis of the deposited data

Results flagged for a closer look

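Of 76 groups of 4 arrays examined over the named genes and subunit pairs, 1 had an array far from the rest of its group (1.32%, where chance gives about 1 in 20). For H2-Ab1, a class II presentation gene, young replicate 4 read 4.44 on the log2 scale, while the other young arrays read 3.14 to 3.35. None of the 10 class I genes had such an array.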

How the results depend on the processing

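Across 22 alternative settings (1 of them, a fit of all probes, was chosen after seeing the data), 0 of the 10 genes passed adjustment (limma), with 1 to 4 at an unadjusted p under 0.05 and a lowest adjusted p between 0.103 and 0.545. The median difference over the 10, 0.29 in the main setting, ran from 0.15 without young replicates 1 and 2 to 0.41 without young replicate 4. These shifts were smaller than 0.25, the SD between replicates of the mean level of the 10 genes. That SD is not a spread of the median difference and is nearly as large as it. Scaling by the median moved all genes by -0.104, to a median of -0.086, and the 10 genes to 0.19, 0.274 above all genes as with the 75th percentile. H2-D1, Tap1, Tap2, Psmb8, Psmb9 and Psmb10 had a positive difference in every setting tried. Other filters, the replicate block, the authors' table and the fit of all probes left these differences the same or nearly so, and add little to this. With array weights the sign turned for H2-K1 (-0.11), B2m (-0.087), Tapbp (-0.023) and Psme3 (-0.20). With 1 array left out, H2-K1 ran from -0.060 to 0.30 and B2m from -0.032 to 0.28, both lowest without young replicate 2. Without young replicates 1 and 2 it turned for H2-K1 (-0.17), B2m (-0.12), Tapbp (-0.051) and Psme3 (-0.30). With the mean of a gene's probes it turned for Nlrc5 (-0.019) and Psme3 (-0.012). The cause was not tested.

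The count over all genes, 63, was 21 when probes had to be above background on all 8 arrays, 172 with array weights, 14 when young replicates 1 and 2 were both left out, and ran from 27 to 77 with 1 array left out. Leaving out 1 array gave 0.77 to 1.01 for Psmb8 minus Psmb5 and 1.06 to 1.48 for Psmb9 minus Psmb6, the adjusted exact permutation p being 0.0429 or 0.0857. Without young replicates 1 and 2 they were 0.80 and 1.01 (adjusted p = 0.20), with too few arrays to pass. With the replicate number as a block they were unchanged at 0.89 and 1.28, with an adjusted sign-flip p of 0.188, where the smallest unadjusted p that 4 pairs allow is 0.125. Deviations of same-numbered arrays correlated by 0.026, 0.141, 0.114 and 0.104 for numbers 1 to 4, and for 3 of the 4 the old array with the best match had the same number and slide column. Not every pair exceeded 0.1, and no label ties the numbers to a litter or day, so whether they pair the samples was not settled; the block gave 70 genes past the threshold.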
